A study of Mus musculus with 24 samples.

Results

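Potassium channel genes were described in mRNA sequencing libraries of dispersed mouse islet cells. The members were the protein-coding genes of the deposited table whose symbol begins with Kcn and a further letter, with 1 gene of the family left out. This gave 93 of 41549 genes, and all 93 were found under the same symbol in the GENCODE M21 annotation of the GRCm38 build. The rule used no measured value. The experiment held 24 libraries in 4 groups of 6. Wild-type islet cells were taken from C57BL/6NRj mice of either sex at an age of 12 to 14 weeks, dispersed and transfected with 50 pmol of an antisense oligonucleotide (ASO), either a control sequence (Ctr) or one directed against 5'tRF-Glu(CTC) (αGlu), a fragment from the 5' part of a glutamate tRNA. They were then kept for 48 h in 0.75% bovine serum albumin (BSA) or in 0.5 mM palmitate (PA) bound to it. Each group held 3 libraries labelled batch 1 and 3 labelled batch 2, and the sources used here do not give what a batch stands for. The preparations hold all islet cell types and whatever exocrine and connective tissue was carried along, so fewer cells of a type and less RNA per cell cannot be told apart. The islet label was matched by the markers, with a sum over 10 beta-cell markers in TPM (transcript abundance scaled for gene length and library depth) of 204159 to 328989 and a sum over 7 alpha-cell markers of 18760 to 50282. Totals ran from 18214719 to 35001979 counts a library.

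Potassium channels let potassium leave or enter a cell and so set its resting voltage and end its action potentials. In the pancreatic beta cell, closure of an ATP-sensitive potassium channel when glucose is metabolised depolarises the membrane, calcium enters, and insulin is released. The other potassium channels shape that electrical activity: voltage-gated (Kv) channels repolarise the action potential, calcium-activated channels open as calcium rises, two-pore-domain (K2P) channels carry a steady leak, and inward rectifiers (Kir) hold the resting voltage. Accessory subunits such as the Kv beta subunits, the KChIP proteins (Kcnip genes) and the beta subunits of the large-conductance calcium-activated (BK) channel change how much of a pore reaches the membrane and how fast it opens or closes. By these roles the members comprised 30 voltage-gated pore-forming genes, 10 modifier subunits that form no channel of their own, 17 accessory subunits, 8 calcium- or sodium-activated genes, 14 inward rectifiers and 14 two-pore-domain genes.

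For a view of the DNA before members that moved with PA, the 250 bases ahead of the RefSeq start site are shown for Kcnk16, the most abundant member, for Kcnc1, the Kv channel gene with the largest rise, and for Kcnn4, which was lowered. They are written 5' to 3' on the gene's own strand and come from the RefSeq promoter windows on GRCm38.p6, at chr14:20269270-20269519 (minus strand), chr7:46396218-46396467 (plus strand) and chr7:24370013-24370262 (plus strand). Capitals mark the only match found to 6 short motifs searched on both strands, each only as the letters given below.
Kcnk16: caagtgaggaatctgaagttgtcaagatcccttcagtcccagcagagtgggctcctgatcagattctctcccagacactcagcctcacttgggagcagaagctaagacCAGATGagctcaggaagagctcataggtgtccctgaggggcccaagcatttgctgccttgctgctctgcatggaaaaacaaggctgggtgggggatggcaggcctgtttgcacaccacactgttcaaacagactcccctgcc
Kcnc1: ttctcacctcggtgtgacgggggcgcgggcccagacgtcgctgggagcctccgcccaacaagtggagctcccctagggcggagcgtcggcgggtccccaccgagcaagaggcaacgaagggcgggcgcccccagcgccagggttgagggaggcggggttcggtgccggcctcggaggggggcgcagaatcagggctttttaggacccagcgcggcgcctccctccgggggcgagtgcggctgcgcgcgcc
Kcnn4: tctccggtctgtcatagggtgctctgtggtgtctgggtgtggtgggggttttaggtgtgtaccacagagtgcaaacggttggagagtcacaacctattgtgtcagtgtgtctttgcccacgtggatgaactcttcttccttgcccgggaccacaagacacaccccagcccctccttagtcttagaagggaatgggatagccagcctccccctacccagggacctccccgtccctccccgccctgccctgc
The promoter windows differed in base composition. That of Kcnc1 held 30 CpG dinucleotides at 74.4% G and C, that of Kcnn4 held 6 at 58.8%, and that of Kcnk16 held 0 at 54.8%. The match in the Kcnk16 window was CAGATG, a form of the E-box, at 142 to 137 bases ahead of the start site. Of the 32851 RefSeq windows of this length, 14.4% hold those letters on either strand. Other forms of the E-box (CANNTG) were not searched or marked, and such letters stand in each of the windows shown, as CACGTG does for Kcnn4. No match was found in these windows to TGANTCA (6.75% of all windows), TGACGTCA (1.55%), TAATTA (4.84%), TATAAA (12.4%) or AGGTCA (14.02%). A match is a description of letters and not of a bound site. Of the 93 members, 69 had a RefSeq window. Kcnip1 had 3 start sites and Kcnip4 had 2, and gene-level counts do not show which was used.

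A single leak channel gene stood above the rest of the family. Kcnk16, which encodes the K2P channel TALK-1 of islet cells, had a mean of 257 TPM over the 24 libraries, with a range of 178 to 331, and took 36.7% of the summed TPM of all members. TPM is scaled for gene length, so it allows levels of different genes to be compared. The next 3 genes were Kcnmb2, a BK beta subunit, at 73.8 TPM (40.4 to 103), Kcnh6, an ether-a-go-go-related Kv channel, at 60.9 TPM (40.2 to 78.01), and Kcnk1, the K2P channel TWIK-1, at 51.3 TPM (32.2 to 65.5). The lowest library for Kcnk16 lay above the highest for any other member, whereas the ranges of the next 3 overlapped.

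Kv pore genes and their partners followed. Kcnh2, the ERG channel, had a mean of 32.4 TPM (24.1 to 40.9). Kcnb2, a delayed rectifier, was at 4.29 TPM (1.89 to 5.76), below the range of Kcnh2. Kcnip1, which encodes the KChIP that binds Kv4 channels, had 24.7 TPM (13.5 to 33.1). Its partners were lower: Kcnd1 (Kv4.1) was at 5.003 TPM, Kcnd3 (Kv4.3) was at 0.353 TPM, and Kcnd2 (Kv4.2) had 22 counts in all libraries together.

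Lower levels were found for Kcnab3, a Kv beta subunit, at 19.9 TPM, Kcnma1, the BK pore, at 19.7 TPM, and Kcnn3, a small-conductance calcium-activated (SK) channel, at 9.99 TPM. The ranges of Kcnab3 and Kcnma1 overlapped. Kcnmb2 stood at 73.8 TPM against 19.7 TPM for the BK pore it attaches to, with ranges that did not overlap. The 14 inward rectifiers counted here summed to 8.31 TPM, of which Kcnj6 held 2.21 TPM and Kcnj12 held 2.07 TPM.

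Most of the family was hardly detected. A mean of at least 10 TPM was reached by 11 members and at least 1 TPM by 37. No count was found in any library for 3 members, Kcnk15, Kcnk18 and Kcns2, and 20 more had 1 to 99 counts in all libraries together. Kcng1, a modifier of Kv2 channels, had 5 counts, which is too few to describe at this depth. The members together took 0.0826% to 0.125% of a library's counts. The filter on low counts was passed by 61 members, and the tests below cover these. The filter needed about 0.375 CPM (counts scaled to the total of each library) in 6 libraries of any group, so a gene seen mainly in 1 condition could pass on that condition alone. The plot of levels by member orders 34 genes of at least 1 TPM.

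**Figure D1:**
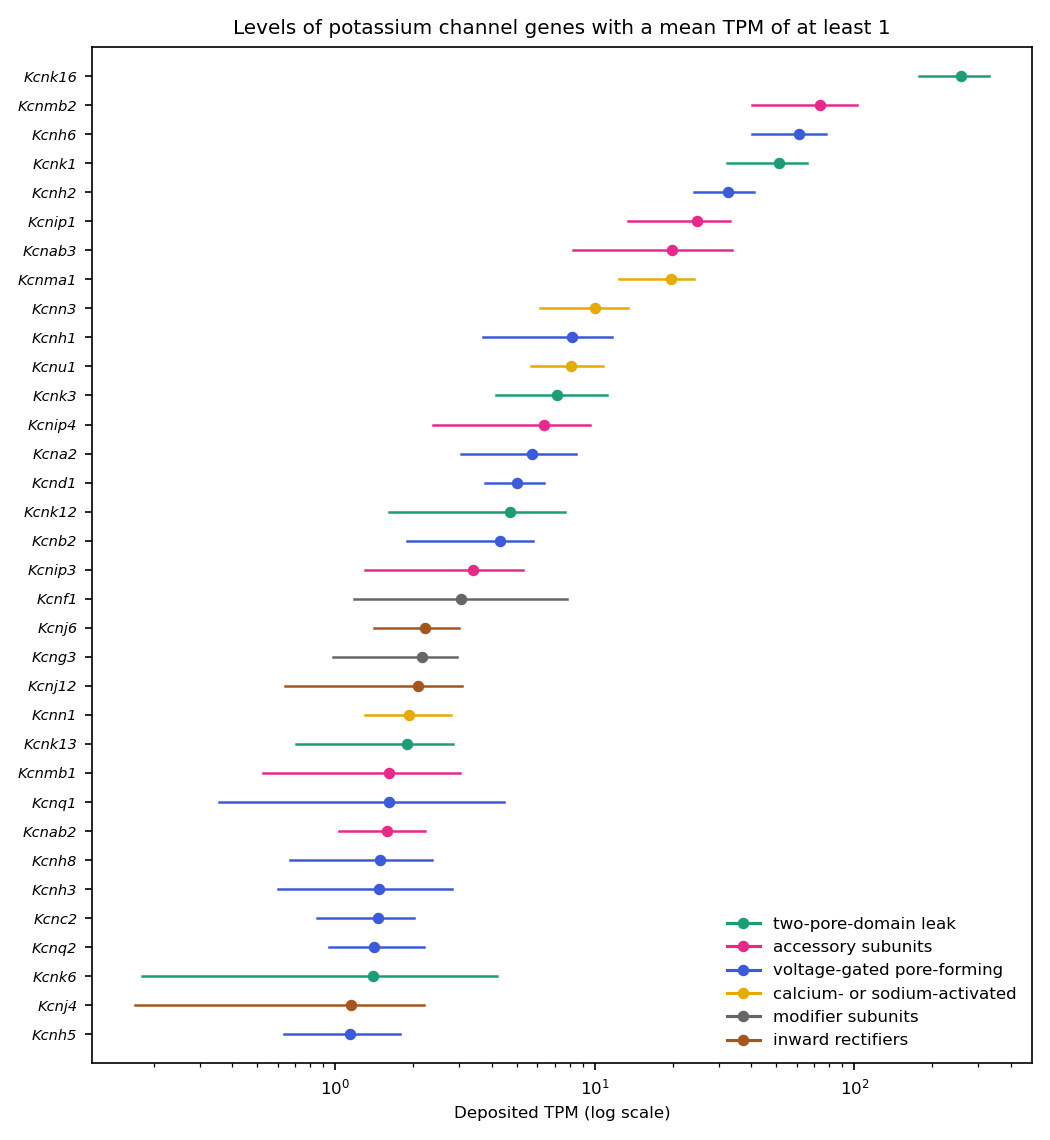
Deposited TPM on a log axis for 34 potassium channel genes with a mean TPM of at least 1; points are means over 24 libraries, lines run from the lowest to the highest library, and colours give the role. Kcnk16 at 257 TPM stands clear of Kcnmb2 at 73.8, and the levels below it descend to Kcnh5 at 1.14.

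The first comparison asked how PA changed these genes in cells with the control ASO. The accessory subunits Kcnip1, Kcnip4, Kcnab3 and Kcnmb2 were raised, along with the Kv pores Kcnb2 and Kcnc1, the leak channel Kcnk16 and the inward rectifier Kcnj12. Kcnk9, Kcnn4 and Kcnu1 were lowered. Levels of these genes are given below as CPM scaled by the trimmed mean of M-values (TMM), and folds come from the edgeR quasi-likelihood fit with a batch term. In all, 11 of 61 members (8 raised, 3 lowered) passed an adjusted p of 0.05 in Ctr cells, which is 18.03%, against 29.5% of all 15916 genes tested, of which 15.3% were raised and 14.2% lowered. In αGlu cells 12 members passed (8 raised, 4 lowered), 19.7% of those tested, against 28.3% of all genes, with 14.3% raised and 14% lowered. The median log2 fold change of the tested members was -0.07 in Ctr and -0.04 in αGlu cells, and that of all genes was 0.01 in both. A smaller share of the family than of all genes was called, so the responding members are described one by one. The labels do not name animals, but each run of 4 consecutive library numbers holds the 4 groups once. With a term for each of these 6 sets, 15 members passed in Ctr and 17 in αGlu cells, against 35.1% and 33.8% of all genes, and each of the 11 and 12 was among them.

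Kcnip1 had the smallest p of the family in both cell sets. The 6 Ctr BSA libraries ran from 33.3 to 55.3 CPM with a median of 45.8, and the Ctr PA libraries from 51.8 to 81.3 with a median of 68.3. The αGlu BSA libraries ran from 32.04 to 62.02 CPM with a median of 45.9, and the αGlu PA libraries from 49.1 to 77.97 with a median of 69.2. The groups overlapped across batches. Within each batch, no PA library overlapped a BSA library with the same ASO. In batch 1 the Ctr libraries lay at 33.3 to 40.7 CPM in BSA and 51.8 to 65.9 in PA, and in batch 2 at 50.9 to 55.3 and 70.7 to 81.3. The log2 fold change was 0.58 ± 0.08 (SE) in Ctr cells (adjusted p = 1.01e-05 by edgeR) and 0.53 ± 0.08 in αGlu cells (adjusted p = 3.13e-05), a rise of 1.495 and 1.45 times.

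Kcnip4, a second KChIP, moved in the same direction. Its 6 libraries ran from 4.12 to 9.40 CPM in Ctr BSA (median 7.13) and from 7.85 to 12.2 in Ctr PA (median 8.55). In αGlu cells they ran from 4.51 to 9.43 CPM in BSA (median 6.77) and from 7.30 to 12.9 in PA (median 9.82). The groups overlapped, but within the sets PA was higher in 6 of 6 with either ASO. Its log2 fold change was 0.46 ± 0.11 in Ctr (adjusted p = 0.00317) and 0.54 ± 0.11 in αGlu cells (adjusted p = 0.00073). An exon of Kcnip4 overlaps the opposite-strand gene 5730480H06Rik, which had log2 fold changes of 0.20 and 0.14 that were not called (adjusted p = 0.134 and 0.296). Nothing in the sources used here says whether reads were assigned by strand.

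The other KChIPs and the Kv4 pores did not pass. Kcnip3, the calcium sensor also called DREAM, had log2 fold changes of -0.06 ± 0.19 and 0.22 ± 0.19, and Kcnd1 had -0.15 ± 0.13 and -0.14 ± 0.12. The intervals of the Kcnd1 change, from -0.40 to 0.09 in Ctr and from -0.39 to 0.10 in αGlu cells, leave room for a modest fall. Other Kv4 accessory proteins, taken from the list of 56 excitability genes, went the other way: Dpp10, a dipeptidyl peptidase-like subunit, was lowered by PA with log2 fold changes of -0.68 ± 0.14 in Ctr and -0.78 ± 0.14 in αGlu cells (adjusted p = 0.000635 and 0.000173). Its relative Dpp6 was lowered in Ctr cells (-0.44 ± 0.17, adjusted p = 0.0483).

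Kcnab3, the cytoplasmic Kv beta-3 subunit, was raised with either ASO. In Ctr cells it ran from 8.03 to 28.3 CPM in BSA (median 16.8) and from 16.7 to 33.3 in PA (median 24.1). In αGlu cells it ran from 8.12 to 31.4 CPM in BSA (median 13.1) and from 20.5 to 32.9 in PA (median 23.6). The ranges overlapped, most of all through 1 BSA library with each ASO, at 28.3 and 31.4 CPM, both of batch 2. For Kcnab3 the log2 fold change was 0.59 ± 0.20 in Ctr (adjusted p = 0.0271) and 0.78 ± 0.20 in αGlu cells (adjusted p = 0.00493). The Ctr call was lost when any of 4 libraries was left out (adjusted p up to 0.0677).

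Kcnmb2, the second most abundant member, was called in Ctr cells only. It ran from 60.4 to 94.8 CPM in Ctr BSA (median 75.6) and from 72.8 to 127 in Ctr PA (median 87.5). Its log2 fold change there was 0.27 ± 0.08 (adjusted p = 0.0128). With the αGlu ASO the value was 0.12 ± 0.08 (adjusted p = 0.281), and the responses with both ASOs were not shown to differ (difference -0.15 ± 0.11, unadjusted p = 0.200 by edgeR). Kcnma1, the pore that Kcnmb2 modifies, had 0.00 ± 0.06 in Ctr cells, with an interval from -0.12 to 0.12, and -0.06 ± 0.06 in αGlu cells. The interval in αGlu cells ran from -0.17 to 0.06.

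Kcnmb1, the BK beta subunit best known from smooth muscle and named here after its values were seen, was called only by the fit with a term for each set. It ran from 0.826 to 5.22 CPM in Ctr BSA (median 2.95) and from 0.757 to 2.80 in Ctr PA (median 1.77). In αGlu cells it ran from 0.976 to 4.26 CPM in BSA (median 3.34) and from 0.753 to 3.02 in PA (median 1.87). The groups overlapped, and within the sets PA was higher in 0 of 6 with either ASO. By set the log2 fold change was -0.76 ± 0.17 in Ctr and -0.69 ± 0.16 in αGlu cells (adjusted p = 0.000918 and 0.00208 by edgeR), against adjusted p of 0.115 and 0.174 with the batch term alone.

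Among pore-forming Kv genes, Kcnc1 had the largest rise. It encodes Kv3.1, a fast channel best known from rapidly firing neurons. Ctr libraries ran from 0.987 to 3.10 CPM in BSA (median 1.54) and from 2.11 to 3.72 in PA (median 2.49). The αGlu libraries ran from 0.724 to 2.01 CPM in BSA (median 1.10) and from 1.68 to 2.90 in PA (median 2.23). All 12 PA libraries reached at least 1.68 CPM, and the groups overlapped through single high BSA libraries of batch 1. Within the sets of 4 libraries PA was higher in 6 of 6 with either ASO. The log2 fold change was 0.67 ± 0.21 in Ctr (adjusted p = 0.0189) and 0.83 ± 0.22 in αGlu cells (adjusted p = 0.00476), and the Ctr call was lost without either of 2 Ctr BSA libraries (adjusted p up to 0.0534). With a term for each set the adjusted p in Ctr was 0.00659.

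Kcnb2, which encodes the delayed rectifier Kv2.2, was raised in Ctr cells. It ran from 13.7 to 25.0 CPM in Ctr BSA (median 20.8) and from 20.1 to 33.2 in Ctr PA (median 27.4), which gave 0.43 ± 0.09 on the log2 scale (adjusted p = 0.000901). With the αGlu ASO it had 0.22 ± 0.09 (adjusted p = 0.0702).

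Of the ether-a-go-go family, Kcnh6 was raised in αGlu cells, from a median of 72.8 CPM in BSA (61.1 to 76.8) to 87.7 in PA (73.2 to 94.7), which gave 0.29 ± 0.08 on the log2 scale (adjusted p = 0.00981). The Ctr value was 0.19 ± 0.08 (adjusted p = 0.0849, and 0.0395 with a term for each set). Kcnh3 went down in αGlu cells (-0.62 ± 0.22, adjusted p = 0.0382), with -0.49 ± 0.22 in Ctr cells (adjusted p = 0.0972). It shares exonic bases with the opposite-strand gene Mcrs1, which had 17235 counts over all libraries against its 1924, and log2 fold changes of -0.03 and 0.08 that were not called. Kcnh2 was not called with either ASO (0.09 ± 0.09 and 0.23 ± 0.09, adjusted p = 0.512 and 0.0606), and with a term for each set it passed in αGlu cells (adjusted p = 0.0069).

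Kcnk16, the most abundant member, was raised with either ASO by a small amount. It ran from 148 to 235 CPM in Ctr BSA (median 216) and from 198 to 290 in Ctr PA (median 218). With the αGlu ASO it ran from 156 to 263 CPM without PA (median 203) and from 205 to 301 with PA (median 238). The groups overlapped, and the Ctr medians were nearly the same. The log2 fold change was 0.21 ± 0.08 in Ctr (adjusted p = 0.0403) and 0.26 ± 0.08 in αGlu cells (adjusted p = 0.0115), the smallest rises among the called genes of each comparison. By batch the Ctr value was 0.31 in batch 1 and 0.10 in batch 2, and the Ctr call was lost when any of 8 libraries was left out (adjusted p up to 0.105).

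Kcnk9, the acid-sensitive leak channel TASK-3, was the member most reduced in Ctr cells. It ran from 0.743 to 1.70 CPM in Ctr BSA (median 1.40) and from 0.322 to 0.567 in Ctr PA (median 0.438), so those groups did not overlap. In αGlu cells it ran from 0.596 to 2.09 CPM in BSA (median 1.19) and from 0.143 to 0.887 in PA (median 0.679), and the groups overlapped. Kcnk9 had a log2 fold change of -1.54 ± 0.35 in Ctr (adjusted p = 0.00167) and -0.99 ± 0.34 in αGlu cells (adjusted p = 0.0301), where leaving out any of 5 libraries ended the call (adjusted p up to 0.108). Kcnk10, the stretch- and lipid-sensitive channel TREK-2, was raised in αGlu cells (0.79 ± 0.27, adjusted p = 0.0317) and had 0.57 ± 0.27 in Ctr cells (adjusted p = 0.114). Kcnk1 and Kcnk3 (TASK-1) were not called with either ASO.

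Kcnn4, the intermediate-conductance calcium-activated channel, was lowered with either ASO. It ran from 1.26 to 3.09 CPM in Ctr BSA (median 2.01) and from 0.729 to 1.27 in Ctr PA (median 1.06), with an overlap of the lowest BSA and the highest PA library. In αGlu cells it ran from 1.40 to 2.82 CPM in BSA (median 1.97) and from 0.359 to 1.33 in PA (median 0.866), with no overlap. The fitted log2 fold change was -0.98 ± 0.26 in Ctr (adjusted p = 0.00578) and -1.18 ± 0.26 in αGlu cells (adjusted p = 0.00134). The SK genes Kcnn1, Kcnn2 and Kcnn3 were not called. Kcnu1, a BK relative best known from sperm, was reduced in Ctr cells (-0.37 ± 0.10, adjusted p = 0.00746) and had -0.24 ± 0.10 in αGlu cells (adjusted p = 0.0724, and 0.0266 with a term for each set). Its Ctr call was lost without the 3 libraries of highest glial marker sum (adjusted p = 0.0534).

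Inward rectifiers gave 1 call in each cell set. Kcnj12 (Kir2.2), named after its values were seen, was raised in Ctr cells (0.60 ± 0.22, adjusted p = 0.0384). Batch 1 alone gave 1.00 for it and batch 2 alone 0.21. It had 0.14 ± 0.21 in αGlu cells. Kcnj2 (Kir2.1) was lowered in αGlu cells (-0.89 ± 0.33, adjusted p = 0.043) and had 0.05 ± 0.33 in Ctr cells. Even for Kcnj2, which had the smallest p of the family, the difference between both PA responses was not called (-0.94 ± 0.47, unadjusted p = 0.053 by edgeR, adjusted p = 1.00). By edgeR 0 of 61 members were called for that difference, against 0% of all genes, and 0 had an unadjusted p under 0.05, against 1.95% of all genes. DESeq2 called 0 members as well and gave 1 at an unadjusted p of 0.05.

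**Figure D2:**
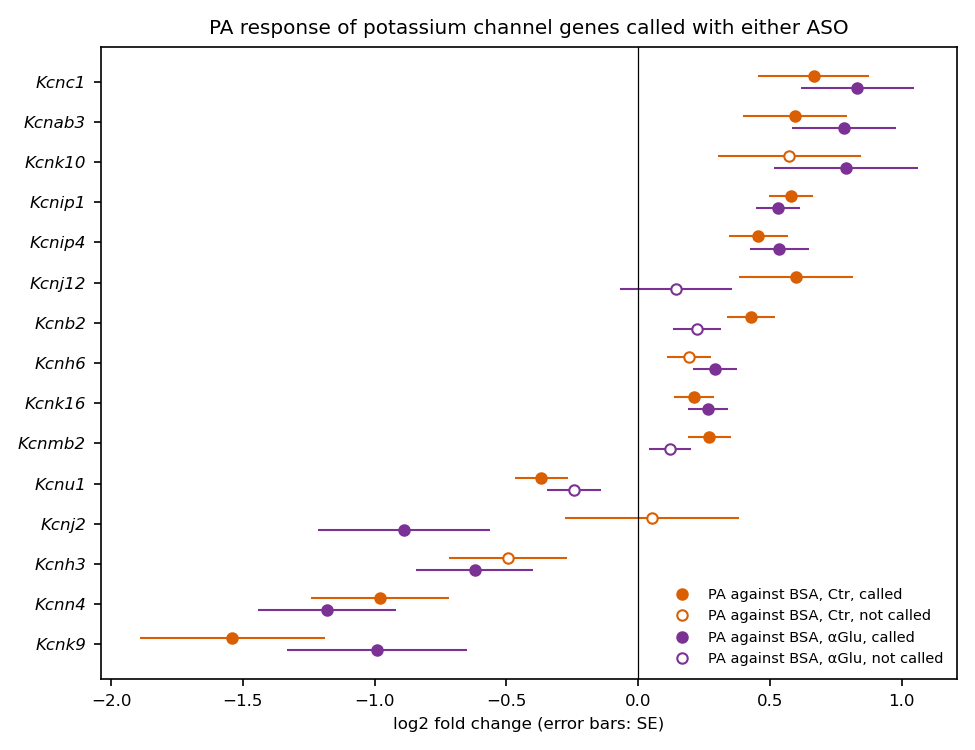
Log2 fold change of PA against BSA, with SE as error bars, for 15 potassium channel genes called with either ASO; filled points passed an adjusted p of 0.05. The 7 genes called with both ASOs are Kcnip1, Kcnip4, Kcnab3, Kcnc1 and Kcnk16 to the right and Kcnn4 and Kcnk9 to the left.

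**Figure D3:**
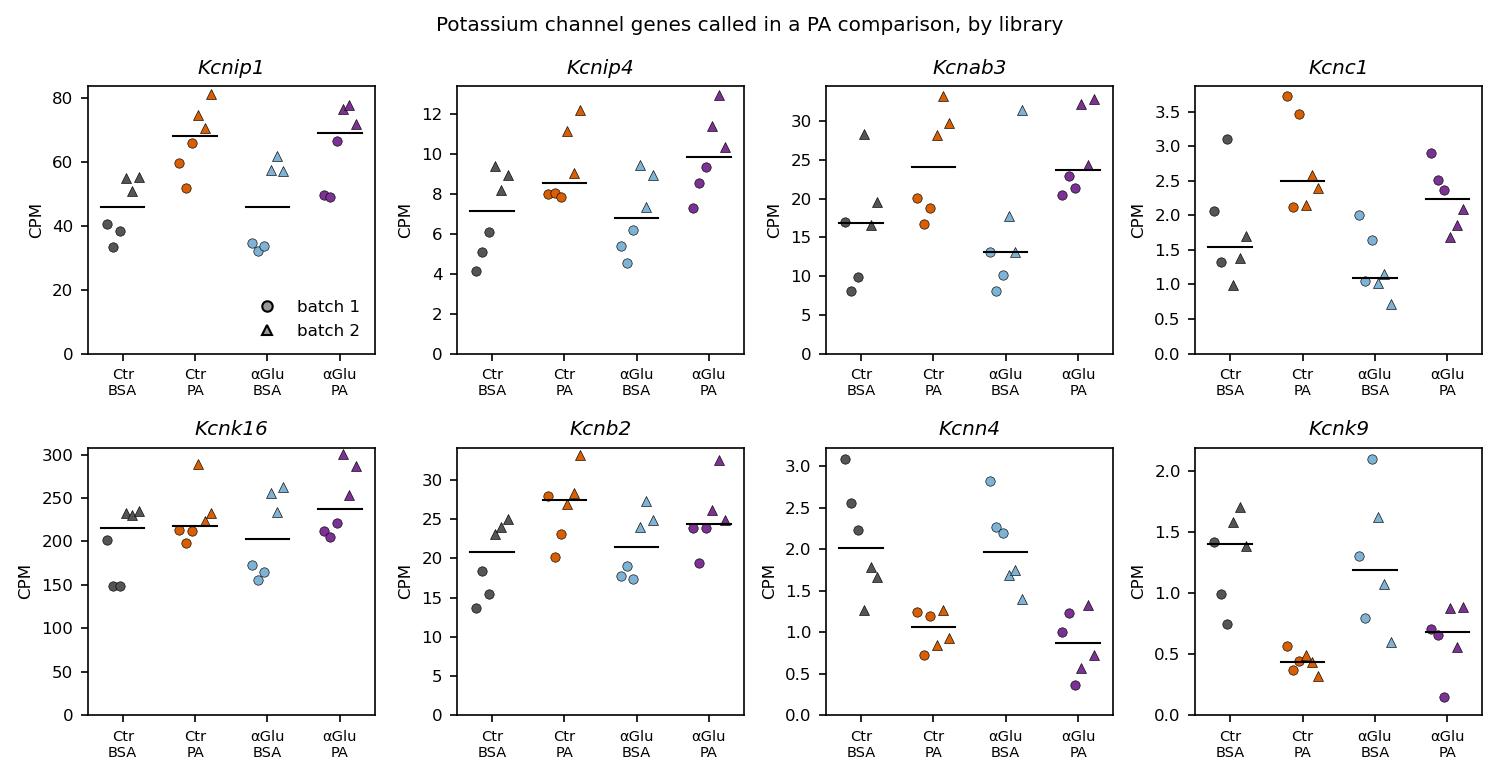
TMM-scaled CPM in each of 6 libraries a group for 8 of the called genes; circles are batch 1, triangles batch 2 and bars are medians. For Kcnip1 the PA libraries lie above the BSA libraries of the same batch, and for Kcnk9 the 6 Ctr PA libraries lie between 0.322 and 0.567 CPM, below all Ctr BSA libraries.

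By role, accessory subunits gave 4 calls of 12 tested in Ctr and 3 of 12 in αGlu cells, each of them a rise, which is 33.3% and 25% against the 29.5% and 28.3% of all genes. Voltage-gated pores gave 2 of 23 and 4 of 23, two-pore-domain genes 2 of 10 and 3 of 10, calcium- or sodium-activated genes 2 of 7 and 1 of 7, inward rectifiers 1 of 7 in each, and the 2 tested modifier subunits none. With a term for each set, the modifier subunit Kcnf1 also passed with either ASO (0.38 ± 0.14 and 0.40 ± 0.14, adjusted p = 0.0387 and 0.0292), and the leak channel Kcnk13 passed in αGlu cells (-0.63 ± 0.22, adjusted p = 0.0322). By that fit the accessory subunit Kcnmb1 was lowered with either ASO, as given above, so not every accessory call was then a rise. The members of the calcium- or sodium-activated group that were called, Kcnn4 and Kcnu1, were lowered. Of the 56 other excitability genes (calcium, sodium, chloride and cation channels, pumps and exchangers), 50 were tested, of which 7 were raised and 10 lowered in Ctr cells and 6 raised and 9 lowered in αGlu cells. Slc8a1, the sodium-calcium exchanger, was among those raised in both (0.49 ± 0.08 and 0.29 ± 0.08), and Cacna1a, the P/Q-type calcium channel, among those lowered in both (-0.39 ± 0.07 and -0.37 ± 0.07).

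Marker levels of some other cell types moved with PA as well. The sum of 10 fibroblast, stellate and mural markers was 118 to 354 TPM in Ctr BSA and 9.50 to 45.4 TPM in Ctr PA, and 77.0 to 491 against 13.2 to 74.6 TPM in αGlu cells, with 7 of 9 tested markers lowered in Ctr and 6 of 9 in αGlu cells. Of the acinar markers 6 of 8 were lowered in Ctr and 5 of 8 in αGlu cells, and of the macrophage markers 6 of 10 and 1 of 10. Of all genes tested, 15.3% were raised and 14.2% lowered in Ctr cells, and 14.3% and 14% in αGlu cells. For the difference between both PA responses, 0 of the 10 macrophage markers were called. As 0% of all genes were called, those calls cannot show whether the macrophage response differed between ASOs. All 10 macrophage markers had a higher PA response with the αGlu ASO than with Ctr. The median log2 difference was 2.02, against -0.01 for all genes. At the unadjusted p threshold used above, edgeR gave 4 of the 10 (40%), against 1.95% of all genes. These values are a description only. Endothelial markers gave 0 calls of 10 with either ASO. Glia and Schwann markers gave 0 of 10 in Ctr and 1 of 10 in αGlu cells, and ductal markers 1 of 7 in each. Of the delta- and PP-cell markers 2 of 5 were lowered in Ctr and 1 of 5 in αGlu cells, and of the alpha-cell markers 1 of 7 and 0 of 7. Of 6 tested neuron markers, 2 were raised and 1 lowered in Ctr cells, and 1 was raised in αGlu cells. None of these lists had a marker at 0 throughout a group. Beta-cell markers gave 3 raised and 3 lowered of 10 in Ctr cells, with summed levels of 208585 to 316089 TPM in BSA and 204159 to 302465 TPM in PA. The part of these shifts in the changes of Kcnk9, Kcnn4, Kcnmb1 and the raised members was not tested.

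The genes outside the family whose profile was most like that of Kcnip1 over the 24 libraries, after centring within batch, were Mcoln3 (Pearson r = 0.93), a lysosomal cation channel, and Eno2 (r = 0.93), a neuronal and endocrine enolase. For Kcnip4 they were Dnajc3 (r = 0.91), an endoplasmic reticulum co-chaperone, and Aff2 (r = 0.90). All 24 points share the PA contrast, and the values are given as a description. Mcoln3 had a log2 fold change of 1.75 in Ctr and 1.62 in αGlu cells.

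The ASO comparisons asked whether blocking 5'tRF-Glu(CTC) changed the same genes. No member passed an adjusted p of 0.05 by edgeR in BSA or in PA, and nor did any of all genes tested (0% called in each). At an unadjusted p of 0.05, edgeR gave 4 of 61 members in BSA (6.56%) and 5 of 61 in PA (8.2%), against 2.75% and 3.27% of all genes. Kcna1 and Kcna6 are in both counts and passed the low-count filter mainly through Ctr libraries, so the counts here and below are a description only. With a term for each set 0 members passed an adjusted p of 0.05 by edgeR, against 0.0565% of all genes in BSA and 0% in PA. DESeq2 called 1 member, Kcna1, in BSA (adjusted p = 0.0348), and none in PA. The paper took a fold above 2 with p under 0.05 and does not say whether that p was adjusted. By a fold above 2 with an unadjusted p of 0.05 by edgeR, 2 members were lower in αGlu cells in BSA (Kcna1 and Kcna6), against 0.622% of all genes, and 4 in PA (Kcna1, Kcna6, Kcnk5 and Kcnd3), against 0.76%. No member was higher by that threshold.

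The abundant members had narrow intervals between ASOs. For Kcnk16 the log2 fold change of αGlu against Ctr was 0.05 ± 0.08 in BSA (interval -0.10 to 0.20) and 0.10 ± 0.08 in PA (-0.05 to 0.26). Kcnma1 had 0.03 ± 0.06 and -0.03 ± 0.06, and Kcnh6 had -0.01 ± 0.08 and 0.09 ± 0.08. Both comparisons by PA and both by ASO draw on the same 4 groups, so values of a gene in different comparisons are not independent.

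Kcna1 and Kcna6, neighbouring Kv1 genes known from axons and glia, gave the largest differences. Kcna1 in Ctr BSA libraries ran from 0.0460 to 2.69 CPM (median 1.16), and in αGlu BSA from 0 to 0.592 (median 0.0393). In PA it ran from 0.279 to 1.31 CPM in Ctr (median 0.519) and from 0 to 0.214 in αGlu cells (median 0.0541), so the PA groups did not overlap. These are few reads: Kcna1 had at most 76 counts in a library, and 8 of the 9 libraries in which it reached the low-count limit were Ctr libraries. The log2 fold change was -3.44 ± 0.81 in BSA (unadjusted p = 0.000263, adjusted p = 0.523 by edgeR) and -2.98 ± 0.86 in PA (adjusted p = 0.628). Kcna6 ran from 0.460 to 10.1 CPM in Ctr BSA (median 1.35) against 0 to 2.51 CPM with the αGlu ASO (median 0.251), with -2.70 ± 1.00. In PA it ran from 0.390 to 8.38 CPM (median 2.23) against 0 to 0.794 (median 0.148), with -3.19 ± 1.09 (adjusted p = 0.995). Kcna6 reached the low-count limit in 6 Ctr libraries in BSA and 6 in PA, against 3 and 2 αGlu libraries. The Ctr libraries alone were thus enough for it to pass the filter.

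Glial markers moved with these genes. The sum of 10 glia and Schwann markers was 14.3 to 103 TPM in Ctr BSA (median 38.3), 13.6 to 36.7 in αGlu BSA (median 29.1), 28.1 to 76.2 in Ctr PA (median 40.2) and 12.9 to 31.5 in αGlu PA (median 20.4), and no marker was at 0 throughout a group. Of the 10, 6 in BSA and 7 in PA were lower in αGlu cells by the fold threshold, and none passed an adjusted p of 0.05. The paper had already named Ngfr, S100b, Foxd3, Gpm6b and Gfap as lowered by αGlu in PA in these data. For those markers the fall is therefore not a separate check. The highest sums were in Ctr BSA S9 and S21 and Ctr PA S19, at 103, 95.7 and 76.2 TPM. In those 3 libraries Kcna6 was at 8.38, 10.1 and 7.34 CPM and Kcna1 at 1.98, 2.69 and 1.31 CPM. Without the 3, the log2 fold change in BSA was -2.56 for Kcna1 and -0.94 for Kcna6, and in PA -2.81 and -2.96. Ctr PA S23, with the next highest sum at 50.5 TPM, stayed in that fit. It held Kcna6 at 8.38 CPM and Kcna1 at 1.25 CPM. The part of glial cells in the difference was not tested.

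Kcnk5 (TASK-2), which lies near Kcnk16 on chromosome 14, had the next smallest p in PA. It ran from 0.678 to 2.58 CPM in Ctr PA (median 0.782) and from 0.115 to 0.763 with the αGlu ASO (median 0.243), with some overlap. The log2 fold change was -1.73 ± 0.54 (adjusted p = 0.774), and -0.68 in batch 1 against -2.75 in batch 2. Without the 3 libraries of highest glial marker sum it was -1.20. In BSA it was -0.53 ± 0.49. Kcnc1 had -0.47 ± 0.22 in BSA (unadjusted p = 0.042 by edgeR, adjusted p = 1.00) and -0.30 ± 0.21 in PA.

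**Figure D4:**
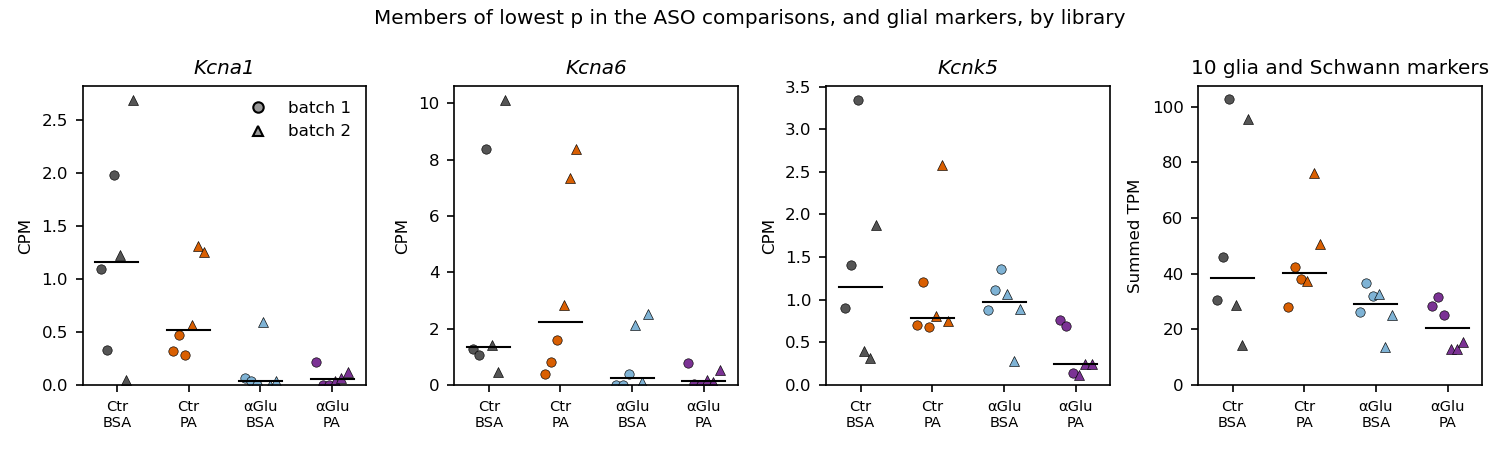
TMM-scaled CPM of Kcna1, Kcna6 and Kcnk5, and the summed TPM of 10 glia and Schwann markers, in each of 6 libraries a group; circles are batch 1, triangles batch 2 and bars are medians. The 4 libraries of highest Kcna6, from 7.34 CPM up, are Ctr libraries and are the 4 of highest marker sum, from 50.5 TPM up.

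The batches differed in more members than any treatment. Batch 2 was higher for 18 members and lower for 11, 29 of 61 in all (47.5%), against 51.3% of all genes, 26% higher and 25.3% lower. Kcnk6 (TWIK-2) had the smallest p: it ran from 1.65 to 5.90 CPM in batch 1 (median 3.73) and from 0.280 to 1.17 in batch 2 (median 0.537), a log2 fold change of -2.66 ± 0.22 (adjusted p = 2.64e-10). Kcnq1, the Kv7 channel of epithelia and heart, ran from 2.06 to 6.24 CPM in batch 1 (median 3.06) and from 0.573 to 1.15 in batch 2 (median 0.772), with -2.16 ± 0.19 (adjusted p = 8.91e-10). The batches did not overlap for either gene. Kcnq1ot1, the opposite-strand transcript inside Kcnq1, had -0.12 ± 0.12 (adjusted p = 0.450).

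Exocrine markers differed between batches in the same libraries. The sum of 8 acinar markers was 7056 to 39138 TPM in batch 1 and 462 to 1442 TPM in batch 2, and that of 7 ductal markers was 423 to 801 against 267 to 449 TPM. All 8 acinar and 5 of 7 ductal markers were lower in batch 2, and all 10 beta-cell markers were higher, with a median log2 fold change of 0.54. The part of exocrine cells in the values of Kcnk6 and Kcnq1 was not tested.

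Abundant members were not alike between batches. Of the 4 most abundant, Kcnk16 (0.44 ± 0.05) and Kcnmb2 (0.47 ± 0.06) were higher in batch 2, whereas Kcnh6 (0.03 ± 0.06) and Kcnk1 (-0.10 ± 0.06) were not called. Kcnh1, a Kv10 channel, ran from 12.6 to 19.6 CPM in batch 1 (median 15.7) and from 23.2 to 30.8 in batch 2 (median 27.8), with 0.83 ± 0.07 (adjusted p = 3.42e-10). Kcnma1 had 0.40 ± 0.04 and Kcnip1 0.54 ± 0.06, while Kcnh2 had 0.09 ± 0.07 and was not called. Kcnc1 was lower in batch 2 (-0.54 ± 0.15, adjusted p = 0.00366), against the direction of the other PA-raised genes Kcnip1, Kcnip4, Kcnab3 and Kcnk16.

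**Figure D5:**
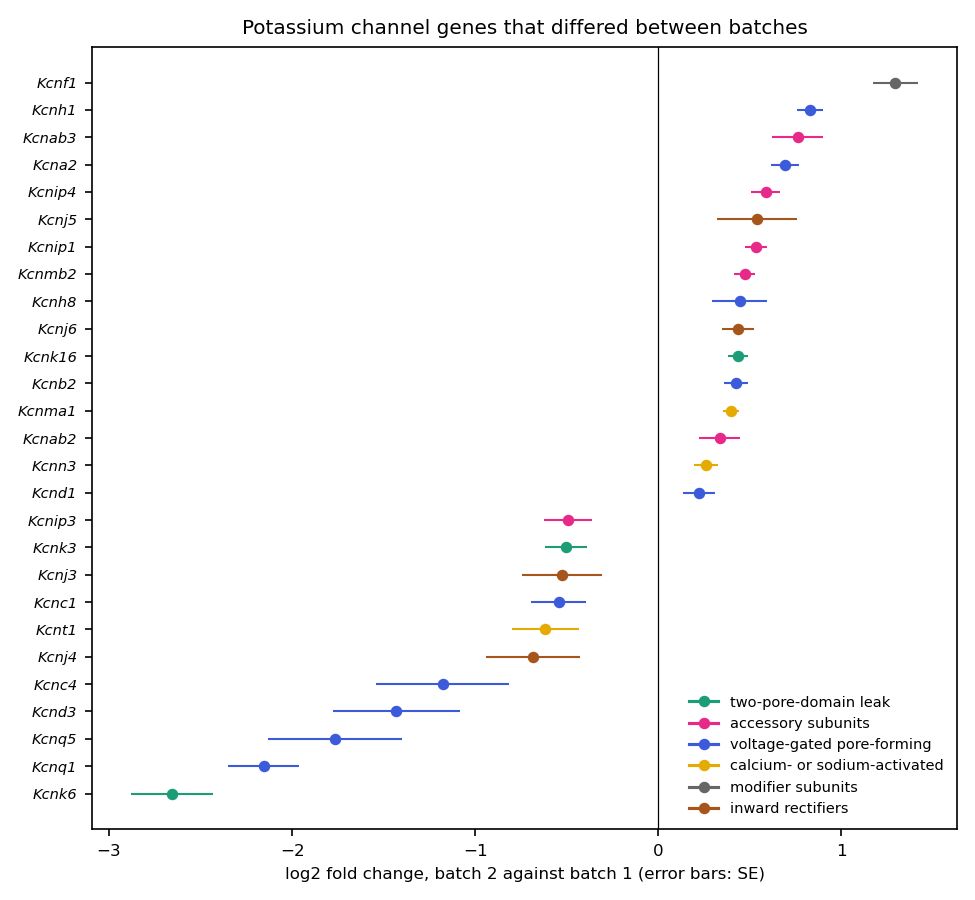
Log2 fold change of batch 2 against batch 1, with SE as error bars, for 27 potassium channel genes that passed an adjusted p of 0.05; colours give the role. Kcnk6 at -2.66 and Kcnq1 at -2.16 lie farthest to the left and Kcnf1 at 1.30 farthest to the right.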

How the data were processed

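Islet cell libraries were made with a stranded mRNA kit. The authors used the RNA-seq Analysis Portal of QIAGEN to make the file, and the submitters' processing notes name the GRCm38 build. An aligner, annotation and strand setting are not given in those sources. For each gene and library the deposited table holds the number of reads on exons (a count, not normalised) and a TPM value scaled by the authors for gene length and library. The 48 RPKM and CPM columns were not used, and some genes of the family are counted but not reported here by name or value. Empty cells were read as 0, and 1 line without a gene held 0 counts. The members and lists were chosen with earlier results of these data known.

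Counts were analysed in R 4.3.3 with edgeR 4.0.16 (quasi-likelihood test, robust, two-sided): genes were filtered by filterByExpr (15916 kept), scaled by TMM, and fitted with a term for each group and for batch over all 24 libraries. Standard errors came from the F statistic, intervals are 95%, and p-values were adjusted by Benjamini-Hochberg over all genes tested. DESeq2 1.42.0, upper-quartile scaling, other filters, fits without batch, by batch or by compared groups, and leaving out libraries were alternatives. The fit was tested on simulated data. Totals were 18214719 to 35001979 counts a library, and reads carried no molecular identifiers. The standard errors and intervals include the spread between libraries. The study's methods describe replicates of primary cells as preparations from different animals, with all groups of a replicate taken from 1 animal, but the labels do not tie libraries to animals. Sets of 4 consecutive library numbers (S1 to S4 and so on) hold each group once. After centring within group and batch, 23 of 24 libraries correlated best with a library of their own set (r of 0.02 to 0.37 within sets, median 0.15, against a median of -0.08 between sets of a batch). A fit with a term for each of these 6 sets in place of batch was therefore added after seeing the data. The pairing is read from the numbering and not from a label.

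Members named in the text were the 12 of highest mean TPM, those called in a PA comparison (up to 10 in each direction), the 3 of smallest p in every other comparison and a list known from islet excitability. For the 2 members of smallest p under PA, Kcnip1 and Kcnip4, the 2 most alike genes outside the family were taken by Pearson r of log2 CPM (prior count 2). Overlapping exons were read from GENCODE M21 and promoter windows from RefSeq.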

Additional observations from a re-analysis of the deposited data

Results flagged for a closer look

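Kcnh1, a Kv10 channel gene, responded to PA differently in the batches. In batch 1 its mean was 13.3 ± 0.287 CPM in Ctr BSA and 18.1 ± 1.42 in Ctr PA, and 13.7 ± 1.67 and 17.2 ± 2.09 in αGlu cells (SD, n = 3 each). In batch 2 the means were 28.6 ± 1.04 and 25.6 ± 2.12 CPM in Ctr, and 29.1 ± 1.503 and 26.8 ± 1.30 in αGlu cells. The PA response in batch 2 minus that in batch 1, over both ASOs, was -0.53 ± 0.10 on the log2 scale (adjusted p = 0.0374 over all genes by edgeR, a fit added after seeing the data), and PA libraries were higher in batch 1 and lower in batch 2. No other member passed this test, and none did for the ASO effect. The share of all genes that passed is not given here, so the call of Kcnh1 is not set against it. The pooled PA comparisons hence show little for this gene (0.13 ± 0.10 in Ctr and 0.10 ± 0.10 in αGlu cells).

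Single libraries stood apart in 3 of the 84 groups of 6 that were checked for 21 genes, where chance flags about 1 in 20. Kcnk9 was at 0.143 CPM in αGlu PA S12, the lowest of its group. Kcna1 was at 0.592 CPM in αGlu BSA S14, the highest of its group, and Kcnk5 was at 0.278 CPM in αGlu BSA S18, the lowest of its group.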

How the results depend on the processing

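Counts of called members were 11 for PA in Ctr, 12 for PA in αGlu cells, 0 in both ASO comparisons and for the difference between both PA responses, and 29 between batches. Without the batch term the PA counts were 4 and 3. Fitted in batch 1 alone they were 7 and 6, and in batch 2 alone 3 and 2, with fewer libraries. By a fold above 2 with an unadjusted p of 0.05 the counts were 2 and 3 for PA, 2 and 4 for the ASO in BSA and PA, and 6 between batches. DESeq2 called 1 member for the ASO in BSA. Leaving out 1 library at a time gave 8 to 13 for PA in Ctr, 8 to 14 for PA in αGlu cells, 26 to 30 between batches, and 0 for both ASO comparisons and the difference. Upper-quartile scaling, both other filters, the compared groups alone and, added after seeing the data, leaving out the 3 libraries of highest glial marker sum kept each count within 1.5 times. Leaving out those 3 gave 12 in Ctr, of which 8 were among the 11, and 14 in αGlu cells, of which 11 were among the 12. It ended the Ctr calls of Kcnab3 (adjusted p = 0.163), Kcnk16 (0.0548) and Kcnu1 (0.0534) and the αGlu call of Kcnh3 (0.0522). Of 25 calls of named members, 18 held without each library. The Ctr calls of Kcnab3 (without S3, S5, S9 or S17), Kcnc1 (S5 or S13) and Kcnk16 (S3, S5, S7, S9, S11, S13, S15 or S17) were lost, at adjusted p of 0.0512 to 0.105. In αGlu cells those of Kcnh3 (S2, S4, S10, S12, S14 or S16), Kcnj2 (S2, S4, S6, S8, S12, S14, S16, S18, S20 or S24), Kcnk10 (S2, S10, S12, S14, S16, S22 or S24) and Kcnk9 (S2, S10, S12, S14 or S20) were lost, at 0.0506 to 0.113. The value that reversed was the difference between PA responses of Kcnk5, at 0.077 in batch 1 alone, and it was not called. The cause of these changes was not tested. A replicate block of the 6 sets of 4 consecutive libraries, also added after seeing the data, gave 15 and 17 members for PA, with each of the 11 and 12 called again, and 0 in both ASO comparisons and for the difference. The labels give each library a number of its own, so the sets are not known to be animals. Genes under about 0.375 CPM were not testable at this depth.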
